A study of Mus musculus with 6 samples.

Results

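Serine proteases cut proteins with an active-site serine, and those named Prss, with acrosin (Acr) and Tmprss12, belong for the most part to the trypsin type; the Spink genes encode small Kazal-type inhibitors that block such enzymes. The members described here are all 54 symbols that begin with Prss or Spink and a digit, with Acr, Acrbp and Tmprss12 added and names ending in os left out, of 25165 symbols in all. They were taken by name alone, although earlier results of these data were known when the members were chosen. They comprise 39 Prss genes, 12 Spink genes and the 3 added genes. In the testis, the acrosome of the spermatid stores acrosin as an inactive precursor that is activated around fertilization. The acrosome also holds a binding protein for that precursor, encoded by Acrbp, and an inhibitor of it, encoded by Spink2. Several further Prss genes are transcribed mainly in male germ cells, and others are known from pancreas, skin, gut, mast cells or nervous tissue.

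RNA of whole testes from C57BL/6 mice aged 8 weeks was sequenced as 6 libraries, with the titles KO (3) and WT (3). The study removed the long non-coding RNA Teshl in the KO mice, and no transgene or treatment is given for either group. The genotype field contradicts the titles in all 6 libraries: it gives wild type for those titled KO and the homozygous loss for those titled WT. Groups below follow the titles, and differences are KO-titled minus WT-titled. The Teshl gene, 1700027A15Rik, was at 0.385 FPKM in KO-titled replicate 1 and listed at 0 in replicates 2 and 3, against 1028, 989 and 1081 FPKM in the WT-titled libraries, so the values go with the titles. Levels are FPKM, fragment counts scaled for transcript length and library size. This scaling makes genes and libraries roughly comparable, but FPKM totals differed between the libraries. Small differences between libraries therefore depend on the scaling, and other scalings are given at the end. From the steps between low values, each library was estimated to hold 27600000 to 39200000 fragments, and 3 fragments on a transcript of 1 kb would equal 0.0766 to 0.109 FPKM, which covers counting error only. In whole tissue, fewer cells of a type and less RNA per cell cannot be told apart.

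The part of these genes that sets their chemistry can be read in the reference sequence. In trypsin-type proteases the active-site serine stands in a short coding stretch, searched for in frame on the coding strand as GGNGANAGCGGNGG, GGNGANAGTGGNGG or GGNGANTCNGGNGG. Of the 41 members among the Prss genes, Acr and Tmprss12, 27 (65.9%) held one of these in the longest coding transcript of GENCODE M21, against 170 of 22338 genes with a coding transcript (0.761%). None of the 12 Spink genes and not Acrbp held one. The stretches below are shown to set members that carry the serine codon beside Prss45 and Prss35. These tested members hold the fixed letters around it in the same frame, but with CCC, a proline codon, and AAT, an asparagine codon, between them. Capitals mark the codon between those letters. The genes were not aligned, so in Prss45 and Prss35 that codon is not known to be at the active site. Prss35 has gag before the codon, where the others have gac or gat, and lacks their tgc or tgt codon after it. Each stretch lies within 1 exon, is written 5′ to 3′ on the coding strand, and is placed on GRCm38.
Acr, chr15:89573832-89573870, plus strand: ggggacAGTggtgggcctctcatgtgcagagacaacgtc
Prss39, chr1:34502624-34502662, plus strand: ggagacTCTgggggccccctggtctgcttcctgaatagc
Prss55, chr14:64075756-64075794, minus strand: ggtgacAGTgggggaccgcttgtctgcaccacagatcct
Prss21, chr17:23872795-23872833, plus strand: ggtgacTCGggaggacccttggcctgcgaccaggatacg
Tmprss12, chr15:100292510-100292548, plus strand: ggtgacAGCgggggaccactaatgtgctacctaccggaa
Prss42, chr9:110802995-110803033, plus strand: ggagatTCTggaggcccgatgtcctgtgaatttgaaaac
Prss48, chr3:85994042-85994080, minus strand: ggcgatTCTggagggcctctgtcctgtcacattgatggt
Prss45, chr9:110840845-110840883, plus strand: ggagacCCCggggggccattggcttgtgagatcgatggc
Prss35, chr9:86755962-86756000, plus strand: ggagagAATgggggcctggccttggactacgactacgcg

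In Acr the codon is number 241 of the coding sequence, in Prss55 it is number 216 and in Prss45 it is number 243. The members without a match included Prss37, which is known in the mouse as a protein without protease activity, and Prss50, known for a threonine where other members have serine. The match was also not found in Prss23, Prss38, Prss43, Prss46, Prss51, Prss54 and Prss58, which says only that these letters are not in frame in the transcript searched. Of the 24 proteases that reached the level needed for testing, 13 held the stretch, and of the 17 that did not, 14 held it.

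The level required for testing, a group mean of 1 FPKM or above in either group, was reached by 27 of the 54 members: 22 Prss genes, Acr, Acrbp, Tmprss12, Spink2 and Spink4. Of these, 5 had a mean over 100 FPKM, 10 a mean between 10 and 100 FPKM, and 12 a mean under 10 FPKM. The remaining 27 reached at most 1.01 FPKM in a library, and 15 of them were listed at 0 in all 6. Spink2 alone made up 27.1% of the members' summed FPKM, and the 6 highest members together 74.9%. The sum over all 54 members was 1606, 1713 and 1619 FPKM in KO-titled testes, against 1635, 1617 and 1721 FPKM in WT-titled testes, so that the libraries of the 2 groups overlapped.

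**Figure D1:**
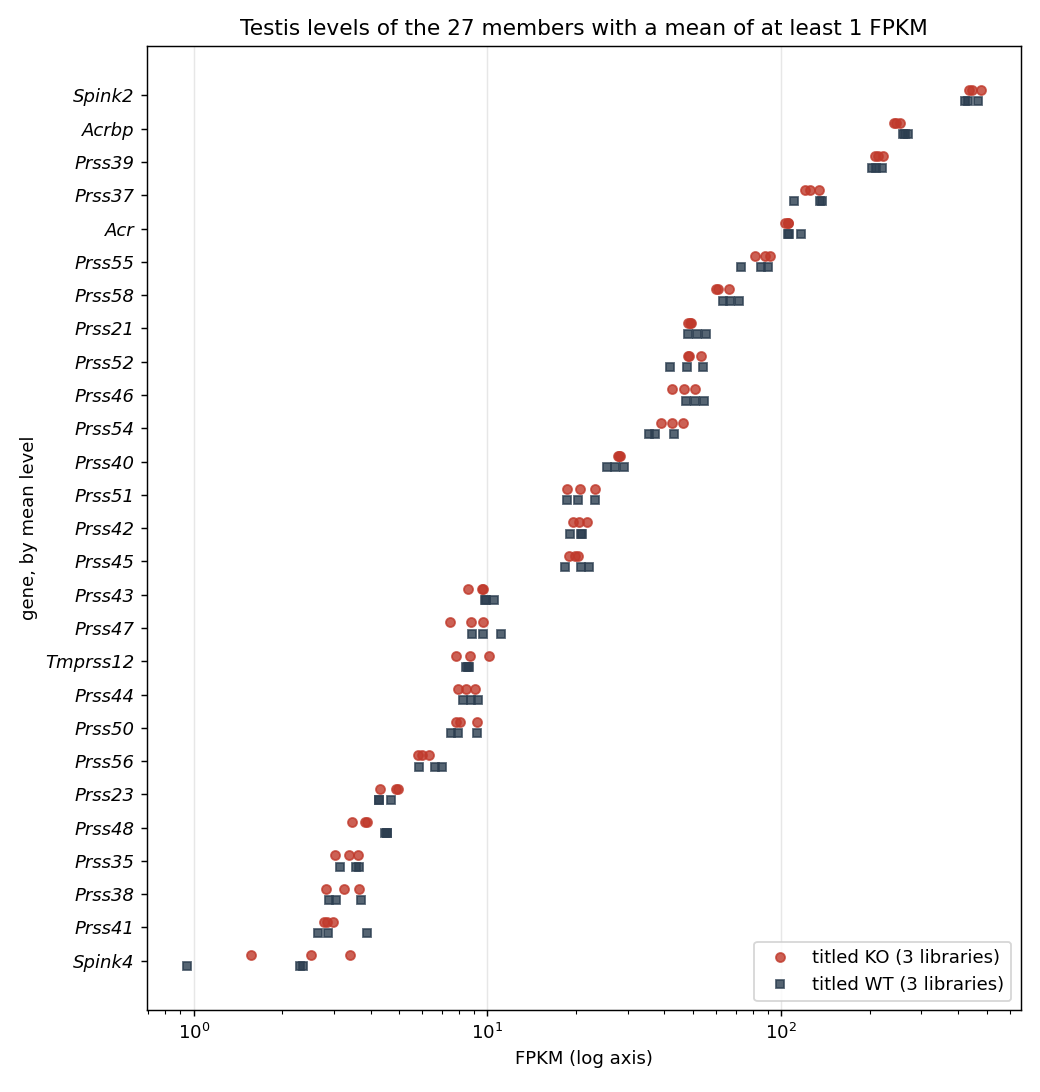
FPKM of the 27 members whose mean reached 1 FPKM, on a log axis, with 1 point per library (circles above, KO-titled; squares below, WT-titled; 3 libraries each). Levels run from Spink2 at 423 to 478 FPKM down to Spink4 at 0.947 to 3.40 FPKM, and the symbols of the 2 groups lie close together in each row.

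None of the 27 tested members passed in the comparison of KO-titled with WT-titled. The test was limma on log2(FPKM + 1) over 12952 genes, with Benjamini-Hochberg adjustment and a threshold of 0.05. By that rule 0 of 27 members were called, where 1.15% of all tested genes were (0.788% higher and 0.363% lower). An unadjusted p under 0.05 was seen for 1 member, Prss48, against 14.3% of all tested genes. The libraries of the groups did not overlap for 4 members, all lower in KO-titled testes, namely Acrbp, Acr, Prss43 and Prss48. Groups were apart for 21.7% of all tested genes, 5.92% higher and 15.8% lower. The log2 fold changes of the members ran from -0.22 to 0.29, 13 positive and 14 negative, with a median of -0.0068 beside -0.043 for all tested genes. Their median size regardless of sign was 0.066, beside 0.082 for all tested genes. Leaving aside Spink4, the 95% confidence intervals lay between -0.41 and 0.34, so larger changes on this scale fell outside the interval of each of the other 26.

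**Figure D2:**
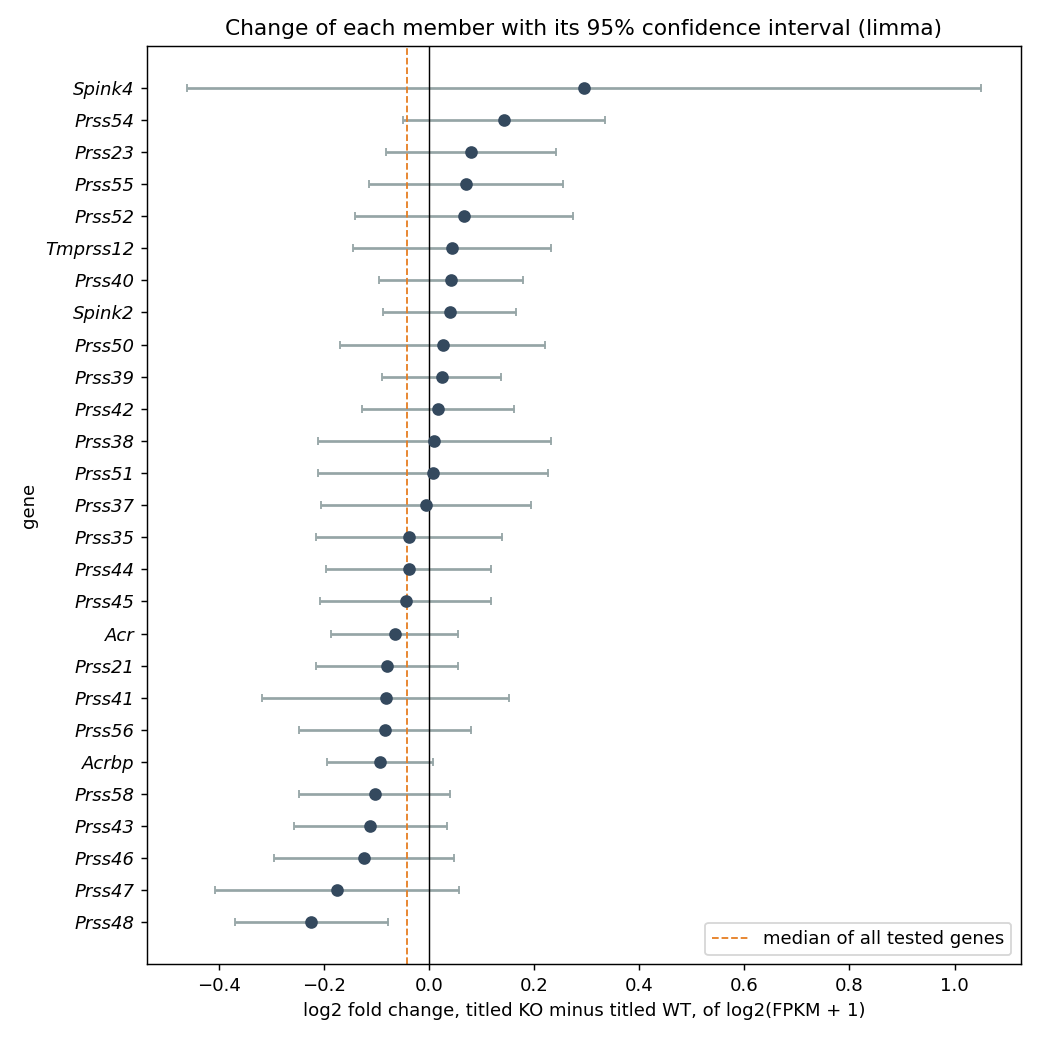
Log2 fold change of each tested member on the log2(FPKM + 1) scale (KO-titled minus WT-titled, points) with its 95% confidence interval from limma (bars); the dashed line marks the median of all tested genes at -0.043. The interval of Prss48 alone lies wholly to one side of 0 (-0.37 to -0.079), and that of Spink4 is the widest (-0.46 to 1.05).

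Acrosin and the proteins that attend it were taken first. Spink2, the acrosomal inhibitor needed in mouse and human spermatids, was the highest member, at 448, 478 and 436 FPKM in KO-titled testes, against 423, 434 and 469 FPKM in WT-titled testes. The groups overlapped, and the log2 fold change was 0.039 (95% CI -0.088 to 0.17, adjusted p = 0.745 by limma). Acrbp, which binds the acrosin precursor and takes part in its storage, was at 243, 253 and 247 FPKM in KO-titled testes, against 259, 270 and 263 FPKM in WT-titled testes. Its 3 KO-titled libraries all lay below the 3 WT-titled, at 93.7% of their mean, but the change did not pass (log2 fold change -0.094, 95% CI -0.195 to 0.0077, adjusted p = 0.384 by limma). Acr itself was at 105.2, 105.6 and 103.0 FPKM in KO-titled testes, against 106.6, 116.7 and 105.7 FPKM in WT-titled testes. Their nearest libraries, KO replicate 2 and WT replicate 3, were barely apart, and WT-titled replicate 2 stood highest (log2 fold change -0.066, 95% CI -0.19 to 0.056, adjusted p = 0.567 by limma). The level of Spink2 divided by that of Acr was 4.26, 4.53 and 4.24 in KO-titled testes, against 3.97, 3.72 and 4.44 in WT-titled testes, again overlapping. Acrbp shares 975 bp of exon with the gene Gm44597 on the same strand in GENCODE M21, so its reads may include those of that gene.

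Proteases of the acrosome and the sperm surface spanned a wide range of levels. Prss39, a protease of the mouse acrosome, was at 209, 223 and 213 FPKM in KO-titled testes, against 220, 204 and 211 FPKM in WT-titled testes (log2 fold change 0.023, 95% CI -0.090 to 0.137, adjusted p = 0.829 by limma). Its neighbour Prss40, likewise of the acrosome, was lower, with 28.1, 28.3 and 27.9 FPKM in KO-titled testes, against 27.1, 25.5 and 29.2 FPKM in WT-titled testes (adjusted p = 0.750 by limma). In both genes the range of the WT libraries enclosed or overlapped that of the KO libraries. Prss37, which mouse sperm need to pass into the oviduct, was at 125, 135 and 120 FPKM in KO-titled testes, against 136, 110 and 138 FPKM in WT-titled testes (-0.0068 on the log2 scale, adjusted p = 0.974 by limma). Here WT-titled replicate 2 was the lowest library and the other two WT-titled were the highest. Prss21 encodes testisin, a membrane-anchored protease of germ cells and sperm, and was at 49.2, 48.7 and 48.3 FPKM in KO-titled testes, against 48.1, 55.3 and 51.8 FPKM in WT-titled testes (adjusted p = 0.534 by limma). Prss54, of the sperm acrosome in the mouse, was at 39.0, 46.3 and 42.5 FPKM in KO-titled testes, against 35.5, 37.1 and 43.1 FPKM in WT-titled testes. It had the largest positive log2 fold change after Spink4 (0.14, 95% CI -0.051 to 0.34, adjusted p = 0.454 by limma), with overlapping groups. Tmprss12, a membrane protease that male mice need for fertility, was low, at 7.83, 8.70 and 10.1 FPKM in KO-titled testes, against 8.59, 8.63 and 8.46 FPKM in WT-titled testes (adjusted p = 0.811 by limma). The spread of its KO libraries took in all 3 WT libraries.

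With under 200 kb between neighbours, 35 of the 54 members lie in 9 clusters, among them 13 of the 27 tested members, and the clusters differed in how many of their members reached the level for testing. Acr, Acrbp, Spink2, Prss37 and Tmprss12 lie outside any of them. On chromosome 9, Prss42, Prss44, Prss43, Prss45, Prss46 and Prss50 lie in that order within 66464 bp (110798166 to 110864629 of GRCm38), and 6 of 6 were tested. On chromosome 14, Prss55, Prss51 and Prss52 lie within 38318 bp (64075438 to 64113755), and 3 of 3 were tested. Prss39 and Prss40 lie within 62534 bp on chromosome 1 (34498410 to 34560943), and both were tested. In contrast, 2 of the 7 members at 23833347 to 24045954 of chromosome 17 were tested, Prss41 and Prss21. None was tested of Prss28, Prss29 and Prss34 farther along chromosome 17, of the trypsin genes Prss1, Prss2 and Prss3 on chromosome 6, of Prss8, Prss36 and Prss53 on chromosome 7, or of the Spink genes in a cluster of 5 and another of 3 on chromosome 18. No member lies on the X or the Y chromosome.

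**Figure D3:**
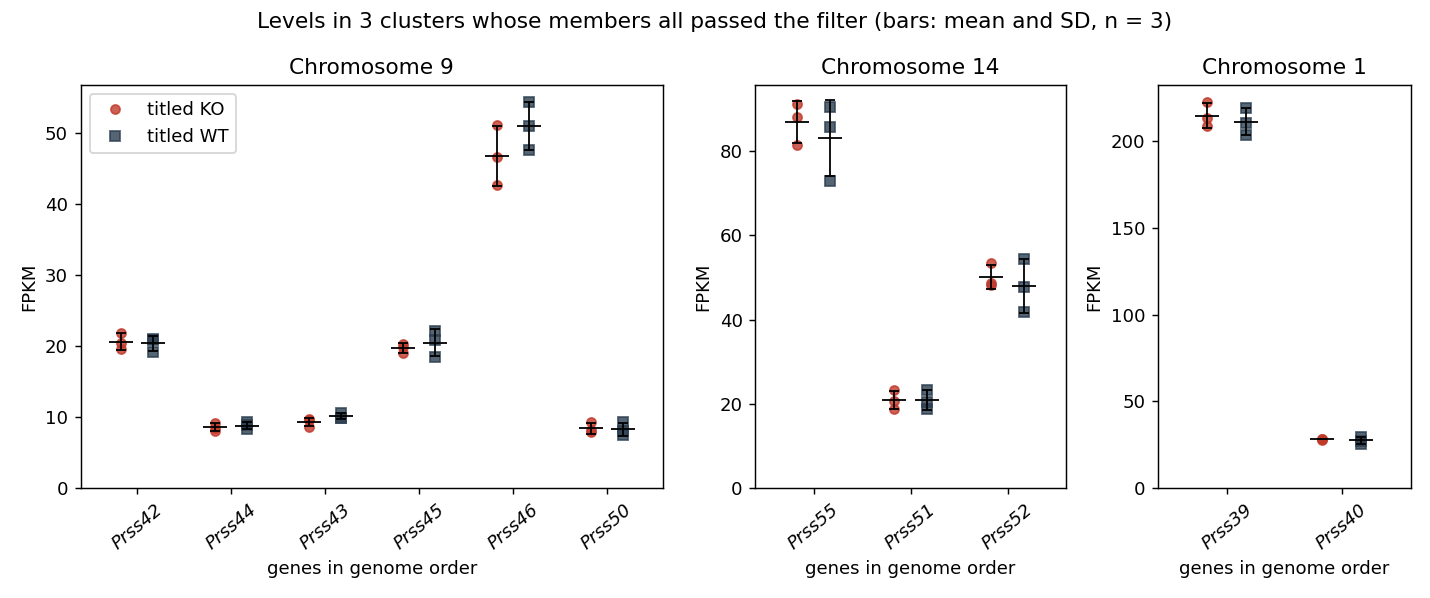
FPKM of the 11 members in 3 clusters whose members were all tested, in genome order, with 1 point per library (KO-titled left, WT-titled right) and the mean and SD of each group (black bars, n = 3). Prss46 on chromosome 9, Prss55 on chromosome 14 and Prss39 on chromosome 1 stand highest in their clusters in both groups.

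Levels within the chromosome 9 cluster differed far more between genes than between groups. Prss46 was highest, at 42.6, 51.0 and 46.6 FPKM in KO-titled testes, against 47.5, 54.4 and 50.9 FPKM in WT-titled testes, with overlapping groups (log2 fold change -0.12, 95% CI -0.295 to 0.048, adjusted p = 0.460 by limma). Prss42, a protease of mouse spermatocytes and spermatids, was at 20.6 ± 1.18 FPKM in KO-titled testes, against 20.3 ± 1.03 FPKM in WT-titled testes (SD, n = 3 each). Prss45, with the proline codon shown above, was at 19.7 ± 0.678 FPKM in KO-titled testes, against 20.4 ± 1.89 FPKM in WT-titled testes (SD, n = 3 each). In either group Prss42 and Prss45 did not differ beyond their spread. Prss43, known from mouse germ cells, was at 9.57, 8.60 and 9.62 FPKM in KO-titled testes, against 10.5, 9.89 and 9.84 FPKM in WT-titled testes. Each KO library lay below each WT library, but the change did not pass (log2 fold change -0.11, 95% CI -0.26 to 0.033, adjusted p = 0.436 by limma). Prss44 was at 8.50 ± 0.577 FPKM in KO-titled testes, against 8.76 ± 0.518 FPKM in WT-titled testes, and Prss50 at 8.36 ± 0.767 FPKM in KO-titled testes, against 8.21 ± 0.892 FPKM in WT-titled testes (SD, n = 3 each). The summed level of the cluster was 106, 118 and 116 FPKM in KO-titled testes, against 114, 121 and 122 FPKM in WT-titled testes.

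The chromosome 14 cluster shared a pattern over libraries that did not follow the groups. Prss55, which mouse sperm need to reach the oviduct, was at 81.5, 91.3 and 88.1 FPKM in KO-titled testes, against 85.7, 73.0 and 90.5 FPKM in WT-titled testes (log2 fold change 0.070, 95% CI -0.12 to 0.25, adjusted p = 0.687 by limma). Prss52 was at 48.1, 53.3 and 48.7 FPKM in KO-titled testes, against 47.8, 41.7 and 54.3 FPKM in WT-titled testes (adjusted p = 0.734 by limma). Prss51 was at 18.7, 23.2 and 20.7 FPKM in KO-titled testes, against 20.4, 18.6 and 23.3 FPKM in WT-titled testes (adjusted p = 0.978 by limma). In all 3 genes, WT-titled replicate 2 was the lowest library of the 6, though for Prss51 KO-titled replicate 1 was almost as low (18.71 against 18.64 FPKM). Outside the cluster, WT-titled replicate 2 was also lowest for Prss39, Prss37, Prss40, Prss45, Prss23 and Prss41. In all it was the lowest for 9 of the 27 tested members (33.3%), against 16.3% of all tested genes, and the highest for 7 (25.9%), against 36.7% of all tested genes. Relative to the mean of the 6 libraries, this library was at 85.9% for Prss55, 85.1% for Prss52, 89.5% for Prss51 and, outside the cluster, 86.6% for Prss37. In contrast it was at 109% for Acr, 110% for Prss21 and 111% for Prss46. Summed over the 7 round spermatid markers, WT-titled replicate 2 was also lowest, at 674 FPKM, with the 3 KO-titled libraries between 704 and 841 FPKM and the other two WT-titled at 725 and 780 FPKM. Of these markers it was lowest for Acrv1, Tssk1, Spaca1 and Txndc8, but not for Crem, Lyzl4 and Spata16. The same library was lowest for the spermatocyte and elongating spermatid sums (2377 and 28502 FPKM). For the peritubular, macrophage and endothelial sums it was highest (38.0, 19.7 and 5.39 FPKM). The part of these marker levels in the values of the members was not tested.

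**Figure D4:**
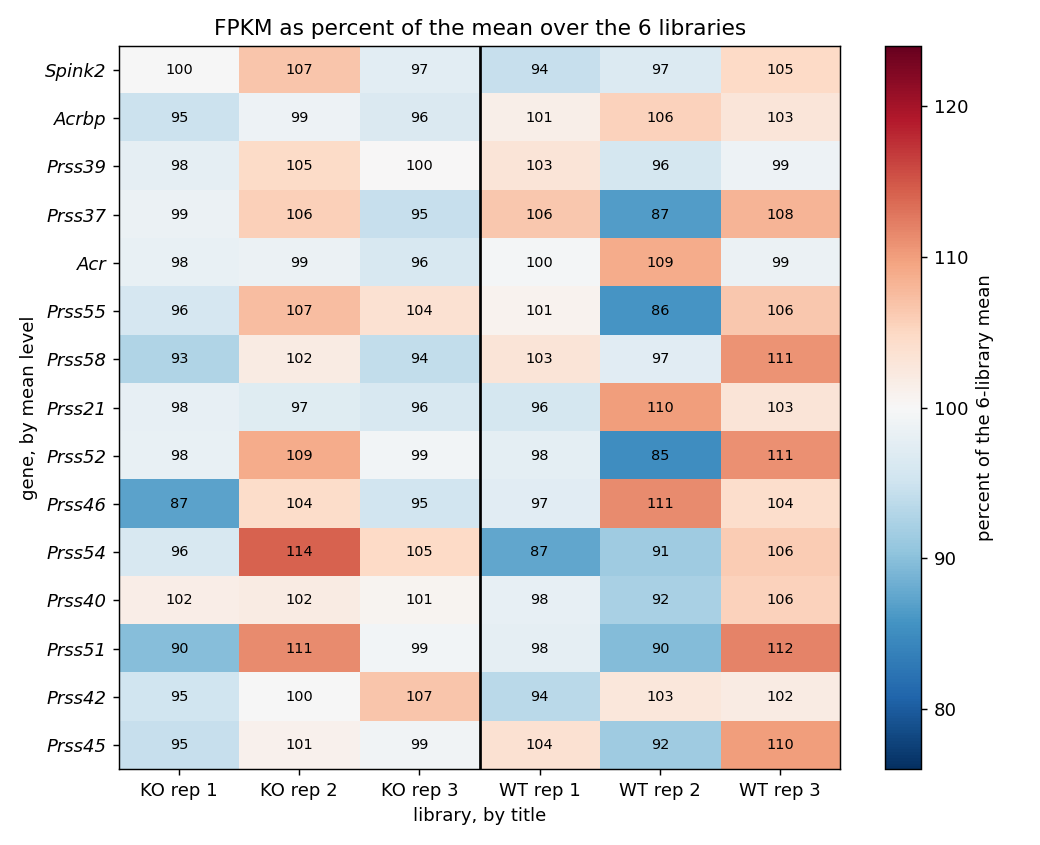
FPKM of the 15 members with a mean over 10 FPKM in each library, as percent of that gene's mean over the 6 libraries (colour and printed value; the vertical line divides KO-titled, left, from WT-titled, right). WT-titled replicate 2 ranges from 85.1% for Prss52 to 111% for Prss46, while Acrbp is below 100% in each KO-titled library and above it in each WT-titled one.

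Of the members outside these groups, Prss48 had the smallest adjusted p, which was also the smallest of all 27. It was at 3.82, 3.89 and 3.47 FPKM in KO-titled testes, against 4.54, 4.53 and 4.48 FPKM in WT-titled testes, or 82.5% of the WT mean. The groups were apart, but the change did not pass over all genes (log2 fold change -0.22, 95% CI -0.37 to -0.079, adjusted p = 0.181 by limma). Prss47 was at 9.68, 7.43 and 8.79 FPKM in KO-titled testes, against 9.63, 11.1 and 8.89 FPKM in WT-titled testes, overlapping (log2 fold change -0.18, 95% CI -0.41 to 0.057, adjusted p = 0.442 by limma). Prss58 was at 60.2, 66.2 and 61.1 FPKM in KO-titled testes, against 66.8, 63.2 and 71.8 FPKM in WT-titled testes, also overlapping (adjusted p = 0.459 by limma). Prss56, known for its role in the growth of the eye, was at 6.05 ± 0.260 FPKM in KO-titled testes, against 6.49 ± 0.567 FPKM in WT-titled testes (SD, n = 3 each).

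Prss23 was at 4.72 ± 0.358 FPKM in KO-titled testes, against 4.41 ± 0.236 FPKM in WT-titled testes, and Prss35, known from the ovary, was at 3.34 ± 0.303 FPKM in KO-titled testes, against 3.46 ± 0.264 FPKM in WT-titled testes (SD, n = 3 each). Prss38 was at 3.24 ± 0.425 FPKM in KO-titled testes, against 3.22 ± 0.440 FPKM in WT-titled testes, and Prss41, of mouse germ cells, at 2.87 ± 0.109 FPKM in KO-titled testes, against 3.13 ± 0.653 FPKM in WT-titled testes (SD, n = 3 each). Each of these genes overlapped between the groups. In GENCODE M21, Prss23 shares 864 bp of exon with Prss23os, Prss38 shares 163 bp with Gm15755, Prss40 shares 289 bp with Cfc1 and Prss41 shares 59 bp with Prss32. Each of these overlaps is with a gene on the opposite strand. The library kit was directional, but the strand setting of the counting is not given, so reads there may or may not be divided between the genes. Spink4, an inhibitor known from goblet cells of the gut, varied most, at 1.57, 3.40 and 2.51 FPKM in KO-titled testes, against 0.947, 2.31 and 2.35 FPKM in WT-titled testes. Replicate 1 was the lowest library in each group, and the change did not pass (0.29 on the log2 scale, adjusted p = 0.651 by limma). That difference moved with single libraries, and was 0.036 without WT-titled replicate 1, 0.11 without KO-titled replicate 2 and 0.50 without KO-titled replicate 1.

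The 27 members below the level for testing include many known best from other organs. Spink8 reached 0.496, 0.844 and 0.253 FPKM in KO-titled testes, against 0.506, 0.440 and 1.01 FPKM in WT-titled testes, and Prss36 reached 0.481, 0.235 and 0.401 FPKM in KO-titled testes, against 0.289, 0.332 and 0.352 FPKM in WT-titled testes. Prss12, which encodes neurotrypsin of the brain, lay between 0.0818 and 0.184 FPKM. Prss33 was at 0.0216, 0.0237 and 0.0197 FPKM in KO-titled testes, against 0.225, 0.0977 and 0.171 FPKM in WT-titled testes. The KO-titled libraries lay under the level of 3 fragments on 1 kb, and with no filter its limma adjusted p was 0.147 (log2 fold change -0.19). Spink10 was likewise lower in each KO library (0.0275, 0.0301 and listed at 0) than in each WT library (0.0717, 0.0623 and 0.0624 FPKM), all under that level. Prss2, Prss16, Prss22, Prss27, Prss32, Spink11 and Spink13 were listed above 0 in 1 library or more, at 0.138 FPKM or less. The 15 listed at 0 in all libraries were Prss1, Prss3, Prss8, Prss28, Prss29, Prss30, Prss34, Prss53, Prss57, Spink1, Spink5, Spink6, Spink7, Spink12 and Spink14. Among them are 2 trypsin genes, prostasin (Prss8), a mast cell protease (Prss34), the implantation proteases (Prss28 and Prss29), the pancreatic trypsin inhibitor (Spink1) and the multidomain inhibitor of the skin (Spink5).

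Some of those zeros are uncertain. Prss1 and Prss3 are at least 90% identical over at least 50% of their length to each other and to further trypsin genes, of which Try5 was at 3.39, 3.73 and 3.63 FPKM in KO-titled testes, against 2.39, 2.45 and 3.33 FPKM in WT-titled testes. Prss53 shares 1636 bp of exon with Gm21974, not analysed here, and Prss57 shares 1157 bp with Fstl3 on the opposite strand. No tested member had such a near copy. Markers of the organs where such members are known were mostly low too. The 8 markers of the exocrine pancreas summed to between 2.91 and 3.99 FPKM in KO-titled testes, against between 2.29 and 3.63 FPKM in WT-titled testes. Cela2a was at 0, and most of the sum came from Amy2a5, with means of 2.495 FPKM in KO-titled testes, against 1.92 FPKM in WT-titled testes. Each KO-titled library of Amy2a5 lay above each WT-titled one, but it did not pass (adjusted p = 0.392 by limma). Groups were apart for 21.7% of all tested genes. The 9 markers of the epididymis summed to between 6.54 and 8.29 FPKM in KO-titled testes, against between 6.32 and 7.27 FPKM in WT-titled testes, with Lcn5 and Rnase9 at 0. Most of that sum came from Rnase10 and Spint5, with means of 2.53 and 3.68 FPKM in KO-titled testes, against 2.65 and 2.88 FPKM in WT-titled testes. Both genes overlapped between the groups. The 5 mast cell markers summed to at most 0.304 FPKM in KO-titled testes, against 0.316 FPKM in WT-titled testes.

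Testis cell types were checked by their markers. The sum of the 8 elongating spermatid markers stood apart, between 33732 and 35888 FPKM in KO-titled testes, against between 28502 and 32454 FPKM in WT-titled testes. Most of it came from Prm1, Prm2, Tnp1 and Tnp2, with KO-titled means of 10218, 8837, 5397 and 6614.5 FPKM. For 4 of the 8, Prm1, Prm2, Tnp2 and Akap4, the groups did not overlap. All 4 were higher in KO-titled testes, as were 5.92% of all tested genes. The groups overlapped for Tnp1, Gapdhs, Oaz3 and Odf1, and Odf1 had a negative log2 fold change (-0.035). None of the 8 passed by limma (Prm1 adjusted p = 0.0682), and 4 had an unadjusted p below 0.05, against 14.3% of all tested genes. The 7 spermatogonia markers summed to between 68.4 and 77.6 FPKM in KO-titled testes, against between 79.2 and 86.1 FPKM in WT-titled testes, and 0 of 5 tested passed (2 with an unadjusted p below 0.05, both lower). Most of that sum came from Dazl and Uchl1, with means of 38.3 and 22.7 FPKM in KO-titled testes, against 42.05 and 29.8 FPKM in WT-titled testes. Sums over the 8 spermatocyte markers were 2485 to 2617 FPKM in KO-titled testes, against 2377 to 2500 FPKM in WT-titled testes. Sums over the 8 Sertoli markers were 357 to 401 FPKM in KO-titled testes, against 379 to 430 FPKM in WT-titled testes, and over the 7 Leydig markers 1483 to 1727 FPKM in KO-titled testes, against 1658 to 1726 FPKM in WT-titled testes. A single gene made up most of each of the sums for spermatocytes, Sertoli cells and Leydig cells. Ldhc had a mean of 1740 FPKM in KO-titled testes, against 1667 FPKM in WT-titled testes. In the same order, Clu had means of 313.5 and 334.7 FPKM, and Insl3 of 1378 and 1453 FPKM. For some single genes of these other cell types the groups were also apart, and none passed by limma. Uchl1 and Kit of spermatogonia were lower in KO-titled testes (adjusted p = 0.0864 and 0.327 by limma). Pgk2 of spermatocytes was higher (adjusted p = 0.213 by limma). Gata1 of Sertoli cells, Hsd3b1 of Leydig cells and Pecam1 of endothelium were lower (adjusted p = 0.192, 0.158 and 0.255 by limma). Such a gap between the groups was seen for 21.7% of all tested genes. Median log2 fold changes of the tested markers were -0.072 for Sertoli, -0.17 for Leydig, -0.13 for peritubular, -0.10 for macrophage and -0.12 for endothelial markers, beside 0.104 for elongating and 0.073 for round spermatid markers. The part of these marker levels in the values of Acrbp, Acr, Prss43 and Prss48 was not tested.

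The partners of these enzymes were read from the same fit. Of 30 genes of the acrosome and of sperm surface maturation, all 30 were tested and 0 were called by limma (1 higher and 2 lower with an unadjusted p below 0.05), with a median log2 fold change of 0.029. Over all tested genes, 1.15% were called, 14.3% had an unadjusted p below 0.05 by limma, and the median was -0.043. Izumo1, the sperm protein that binds the egg, was at 45.7, 54.3 and 46.9 FPKM in KO-titled testes, against 38.5, 36.9 and 43.0 FPKM in WT-titled testes, with each KO library above each WT library (log2 fold change 0.30, SE 0.081, adjusted p = 0.144 by limma). Tssk6, a kinase of spermatids, was at 250, 236 and 236 FPKM in KO-titled testes, against 274, 252 and 265 FPKM in WT-titled testes (-0.13 on the log2 scale, adjusted p = 0.294 by limma). Ly6k, a surface protein of germ cells, was at 87.9, 92.3 and 98.8 FPKM in KO-titled testes, against 101, 117 and 99.7 FPKM in WT-titled testes (-0.19 on the log2 scale, adjusted p = 0.296 by limma). In both genes each KO-titled library lay below each WT-titled one. Among the 30, the groups were apart for 1 gene that was higher and 2 that were lower, where 21.7% of all tested genes were apart.

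Other serine peptidases and inhibitors showed no call either. Of all tested genes, 1.15% were called and 14.3% had an unadjusted p below 0.05 by limma. Of 43 listed peptidases, 42 were in the tables, 15 were tested and 0 called by limma (0 higher and 3 lower with an unadjusted p below 0.05), with a median log2 fold change of -0.14. Pcsk6, a proprotein convertase, came nearest, at 1.87, 1.78 and 1.88 FPKM in KO-titled testes, against 2.50, 2.67 and 2.31 FPKM in WT-titled testes (log2 fold change -0.296, SE 0.069, adjusted p = 0.0949 by limma). The secreted proteases Htra3 and Htra1 had log2 fold changes of -0.20 (adjusted p = 0.341 by limma) and -0.26 (adjusted p = 0.349 by limma). Of 36 serpins and other inhibitors, 19 were tested and 0 called by limma (1 higher and 1 lower with an unadjusted p below 0.05), with a median log2 fold change of -0.046. Serpinf1, a secreted serpin, was at 2.07, 2.31 and 2.30 FPKM in KO-titled testes, against 2.64, 4.12 and 2.86 FPKM in WT-titled testes (-0.37 on the log2 scale, adjusted p = 0.237 by limma). Serpinb6c had a log2 fold change of 0.22 (adjusted p = 0.288 by limma), and Spint2, a Kunitz-type inhibitor of membrane proteases, of -0.10 (adjusted p = 0.405 by limma).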

How the data were processed

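Per the labels' protocols, testis RNA was taken up in Trizol and a directional NEBNext kit (Ultra II) was used for library preparation. HISAT2 and the build mm10 are named, per the submitters' processing notes, while quantifier, annotation and strand setting are not given in those notes or labels. The authors deposited 1 table of FPKM per library (25910 rows, 25165 symbols); the unit was taken from the values, which are not whole, differ in their totals between libraries and fall on steps at low levels. Rows were summed per symbol, which touched no member. The members and lists were chosen with earlier results of these data known. The labels do not state that each library is its own animal; the spread behind each p-value is that of these libraries and may be technical.

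The 12952 genes whose mean reached 1 FPKM in either group were tested on log2(FPKM + 1) by limma 3.58.1 (R 4.3.3), with a variance trend, robust estimation and Benjamini-Hochberg adjustment at 0.05; this scale understates changes of low genes. Every tested member was to be described, and of each partner list the 3 genes with the smallest p where fewer than 3 were called. Positions, exon overlaps and coding stretches came from GENCODE M21 (GRCm38, the assembly of mm10; 54 of 54 members matched by symbol), and near copies from BLAST 2.17.0. Alternatives were pseudocounts of 0.1 and 0.01, other filters (none, or 0.1 FPKM), 3 scalings, a threshold of 0.1, a replicate block, no robust estimation and each library left out. Figures were drawn with matplotlib 3.10.9.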

Additional observations from a re-analysis of the deposited data

How the results depend on the processing

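The count of called members was 0 under every alternative run, with a lowest adjusted p of 0.147 (Prss33, no filter) and of 0.149 among the 27 tested above (Prss48, equal library totals). For Prss48 the adjusted p ran from 0.149 to 0.366, and its log2 fold change stayed negative. Those of Acrbp, Acr and Prss43 also stayed negative, but their size moved with the scaling. They were -0.042, -0.014 and -0.065 with upper-quartile scaling, against -0.107, -0.079 and -0.125 with equal totals. Whether the libraries of these genes stay apart under other scalings was not tested. Near 0 the sign of other members moved, none of them called. With upper-quartile scaling the log2 fold change was 0.0017 for Prss35, 0.045 for Prss37, 0.0074 for Prss44 and 0.0048 for Prss45; with median-of-ratios scaling it was 0.036 for Prss37; with equal totals it was -0.00060 for Prss38 and -0.0061 for Prss51. Leaving out single libraries gave ranges across 0 for 14 members: Prss35 -0.088 to 0.015, Prss37 -0.11 to 0.051, Prss38 -0.061 to 0.093, Prss39 -0.0027 to 0.051, Prss40 -0.0045 to 0.090, Prss41 -0.17 to 0.042, Prss42 -0.025 to 0.053, Prss44 -0.084 to 0.0034, Prss45 -0.12 to 0.011, Prss50 -0.040 to 0.10, Prss51 -0.069 to 0.088, Prss52 -0.028 to 0.16, Prss55 -0.019 to 0.13 and Tmprss12 -0.047 to 0.12.

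Over all genes 149 were called, 88 without a filter, 274 at a threshold of 0.1, 50 with the replicate block, and 73 to 233 without single libraries (73 when KO replicate 2 was left out, 77 for KO replicate 3, 81 for WT replicate 1 and 233 for WT replicate 3). The share of higher calls was 68.5%, and 82.4% with upper-quartile scaling, which moved the median of all genes to 0.0024. Same-numbered libraries deviated with correlations of 0.065, -0.129 and 0.061, so no pairing by number was seen. With 3 libraries per group such correlations cannot exclude a pairing. With the replicate block 0 members were called. Among other peptidases and inhibitors, 1 was called at a threshold of 0.1 (Pcsk6) and 0 to 1 without single libraries (Klk1b24 without WT replicate 1, adjusted p = 0.0436). No partner gene of the acrosome was called under any alternative. The log2 ratio of the members' summed FPKM was -0.010, 0.042 with upper-quartile scaling and -0.040 to 0.017 without single libraries. The target's log2 fold change was -9.86, and -14.89 with a pseudocount of 0.01 (adjusted p = 0.0644). The causes were not tested. Members under about 0.1 FPKM rest on a few fragments.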
